A study of Mus musculus with 6 samples.

Results

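Of 11922 genes counted in cultured mouse CD8+ T cells, 37 met a rule for genes that were expressed with vehicle and close to silent with AOA. Levels in CPM were taken as a gene's count divided by the total count of its library and multiplied by 1000000. A switched-off gene had at least 5 CPM in each of the 3 vehicle libraries and less than 1.5 CPM in each of the 3 AOA libraries. These 37 genes were 0.396% of the 9352 genes at 5 CPM or more in every vehicle library. The mirror rule, with the groups exchanged, took 13 genes, which was 0.140% of the 9305 genes at 5 CPM or more in every AOA library. The values that chose the 37 genes are the same AOA and vehicle values given below, so they are a description and carry no test.

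Splenic CD8+ T cells of 3 C57BL6/J mice were activated with anti-CD3 and anti-CD28 beads and interleukin-2 at 100 units per ml, and RNA was taken on day 7. Water as vehicle or 0.25 mM AOA was present throughout, and the beads of the activation phase and interleukin-2 were common to both groups. Cells of every mouse were cultured both ways, so a replicate number names a mouse, and values below are listed for mice 1, 2 and 3 in that order. AOA (aminooxyacetic acid) reacts with pyridoxal phosphate, the active form of vitamin B6, and blocks the transaminases and other enzymes that carry it as cofactor, so that it inhibits a whole class of enzymes and not a single one. CD8+ T cells activated in this way are known to become effector cells, which make cytotoxic granules, cytokines and receptors for chemokines, lipids and matrix. Granzymes and chemokine receptors are the usual examples of effector products, and most genes described here belong to neither group.

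Total counts were between 12881962 and 18934869 with vehicle and between 18696114 and 21997078 with AOA. The edgeR quasi-likelihood test with Benjamini-Hochberg adjustment, fitted on 11759 genes, called 26.8% of them lower and 26.2% higher with AOA at an adjusted p under 0.05, and in 31.2% all 3 AOA libraries lay below all 3 vehicle libraries. All 37 genes were in this last class because the rule put them there. Of 8 counted CD8 T cell markers edgeR called 3 higher and 1 lower with AOA. Cd8a, the CD8 alpha chain, was at 779 ± 106 CPM with vehicle and 1616 ± 130 CPM with AOA (SD, n = 3), while Cd2 went from 434 to 288 CPM (edgeR adjusted p = 0.011, and 0.056, 0.053 and 0.058 without vehicle replicate 3, AOA replicate 2 or AOA replicate 3). Cd3e, Cd3d, Cd3g and Lck were not called, with log2 fold changes of -0.27, -0.13, -0.31 and -0.06, although Cd3d was called lower without AOA replicate 1 (edgeR adjusted p = 0.038). Fewer cells of a kind and less RNA per cell cannot be told apart in such bulk libraries.

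The switched-off genes were of modest abundance. The rule itself favours this, since a fixed AOA limit admits an abundant gene only at a very large ratio. Their mean vehicle level was between 6.69 and 42.9 CPM with a median of 11.9 CPM, against a median of 43.3 CPM over the 9352 vehicle-expressed genes. Of these, 4699 (50.2%) had a higher mean vehicle level than the highest switched-off gene. Per length, the median vehicle level was 7.91 TPM, the same kind of value after division by gene length, for the 37 genes and 31.3 TPM for the vehicle-expressed genes, while median gene lengths were 2793 and 2987 bases. With AOA the 37 genes had between 3 and 74 counts over the 3 libraries together. The ratio of pooled vehicle to pooled AOA CPM was between 6.18 and 345, with a median of 22.2. Only Esm1 and Zcchc14 were at 0 in any AOA library, and no gene was at 0 in all 3.

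**Figure D1:**
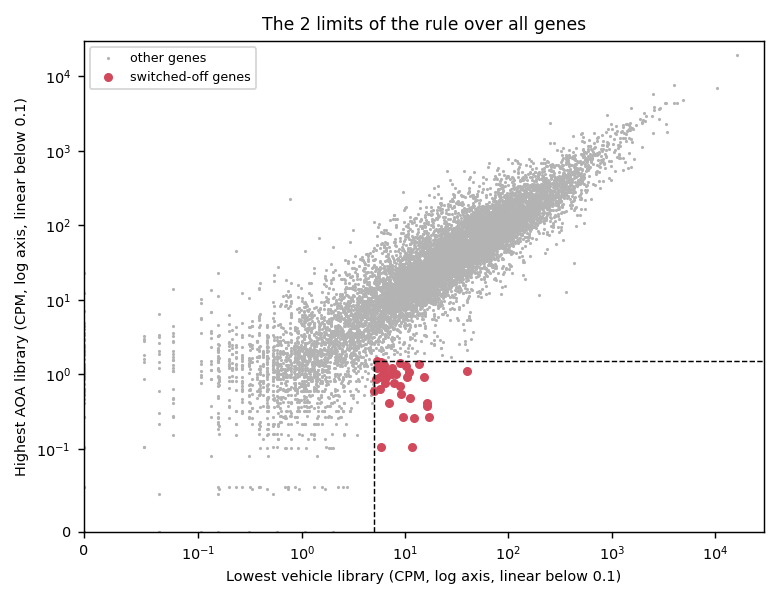
Each point is a gene, placed by its lowest CPM among the 3 vehicle libraries and its highest CPM among the 3 AOA libraries, on log axes that are linear below 0.1. Dashed lines mark 5 CPM and 1.5 CPM, and the 37 switched-off genes fill the corner they bound, with Ltb4r1 farthest to the right.

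Size of the ratio and membership of the rule were not the same thing. Among vehicle-expressed genes the pooled ratio was at least 10 in 72 genes, of which 29 were switched off, and at least 20 in 37 genes, of which 20 were. At a ratio of 50 or more the counts were 9 of 10 genes, and the other gene was Gzma, a granzyme whose ratio was 119 but which kept 6.30 CPM with AOA. Other genes with a ratio over 20 that stayed above the AOA limit in some library included Havcr2, the inhibitory receptor TIM-3, at 65.1 CPM with vehicle and 2.00 CPM with AOA, and Bcl6, a transcriptional repressor, at 48.4 and 2.20 CPM.

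Both limits cut through a continuous range. The genes just inside the AOA limit were Tg, Ltbp4, 4930431P03Rik, Mirt1 and Nfe2, whose highest AOA library was at 1.498, 1.48, 1.41, 1.39 and 1.34 CPM. Just outside were Gapdhs and Maf, each at 1.55 CPM, Atcay at 1.60 CPM, and Ltk and Slfn5, each at 1.71 CPM. Inside the vehicle limit lay Fgd5, Rgs16, Tg, Plekhf1 and Adamts14, whose lowest vehicle library was at 5.05, 5.20, 5.31, 5.38 and 5.76 CPM. Kdm4d at 4.96 CPM, Clba1 and Clip3 at 4.86 CPM, 2210408F21Rik at 4.75 CPM and Cass4 at 4.74 CPM fell just short of it. Leaving out vehicle replicate 2 gave 57 genes and leaving out AOA replicate 2 gave 64, and dropping a library can only add genes under this rule.

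By what they encode, 7 of the genes were receptors or adhesion proteins, 10 were secreted or matrix proteins, 7 were intracellular signalling proteins, 5 were nuclear or nucleic-acid-binding proteins, 6 were other membrane or intracellular proteins and 2 were long non-coding RNAs. The 36 genes with a RefSeq position were spread over 16 chromosomes, with 6 on chromosome 7 and 4 each on chromosomes 13 and 15.

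**Figure D2:**
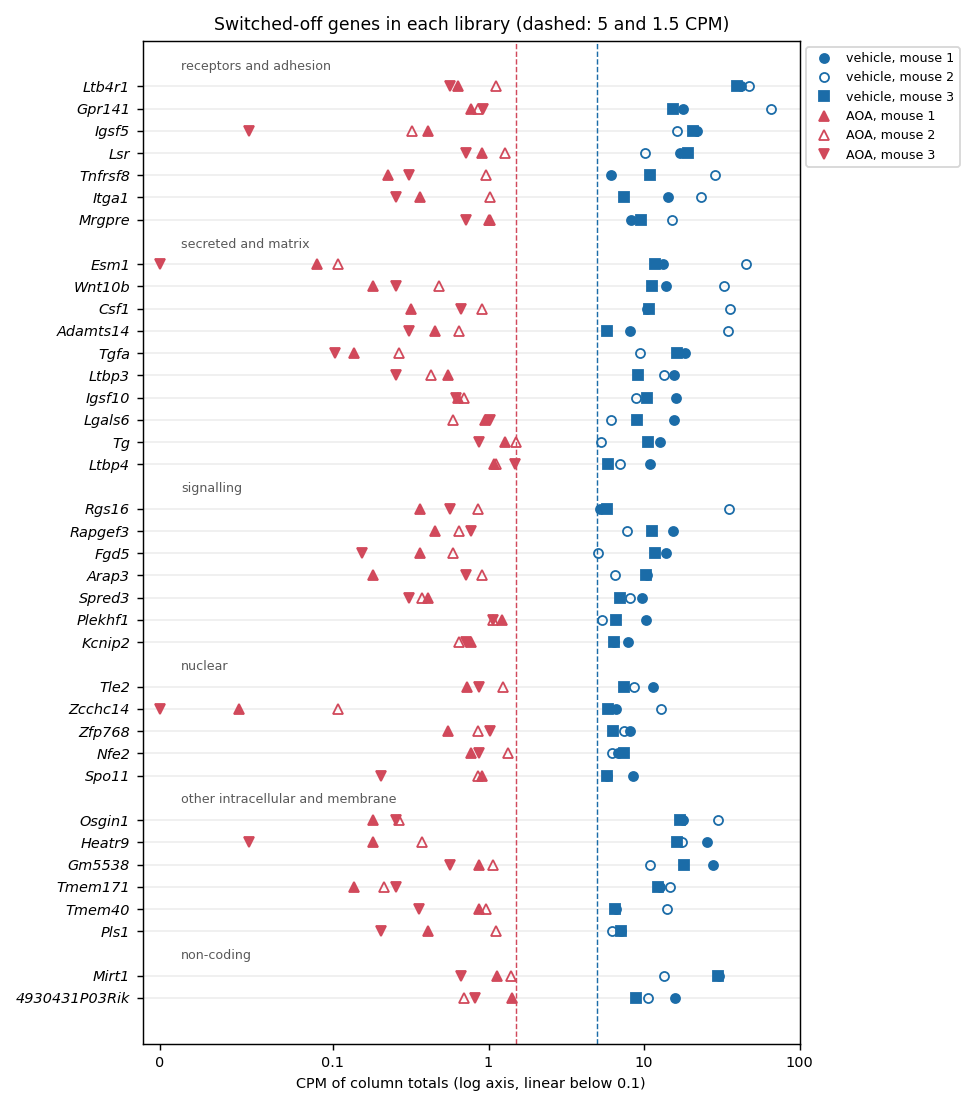
CPM of each switched-off gene in each library, on a log axis that is linear below 0.1, with genes grouped by role and ordered by mean vehicle level. Blue marks are vehicle and red marks AOA, open marks are mouse 2, and dashed lines are at 1.5 and 5 CPM. Esm1 and Zcchc14 have AOA marks at 0, and the vehicle mark of mouse 2 is far to the right for Rgs16, Adamts14 and Gpr141.

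Among the receptors, Ltb4r1 had the highest level per length of all 37 genes, at 64.0 TPM. It encodes the high-affinity receptor for leukotriene B4, a lipid that draws leukocytes into inflamed tissue. The vehicle libraries held 42.2, 47.0 and 39.6 CPM and the AOA libraries 0.636, 1.12 and 0.563 CPM, a ratio of 55.9. The highest vehicle culture was 1.19 times the lowest, the smallest spread among the 7 genes. Gpr141, an orphan G-protein-coupled receptor, was at 17.7, 65.5 and 15.3 CPM with vehicle and 0.773, 0.856 and 0.921 CPM with AOA, with mouse 2 well above the others in vehicle alone. Mrgpre, an orphan receptor of the Mas-related family known mainly from sensory neurons, was at 8.23, 15.2 and 9.51 CPM and 1.00, 1.02 and 0.716 CPM.

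Tnfrsf8 encodes CD30, a member of the tumour necrosis factor receptor family found on activated lymphocytes. Its vehicle libraries were at 6.13, 28.5 and 10.9 CPM and its AOA libraries at 0.227, 0.963 and 0.307 CPM, with mouse 2 the highest culture in both groups. Itga1, the alpha 1 chain of a collagen-binding integrin that marks tissue-resident T cells, was at 14.3, 23.2 and 7.45 CPM with vehicle and 0.364, 1.02 and 0.256 CPM with AOA. Proteins of epithelial cell junctions were also in the group. Igsf5, a junction protein of the immunoglobulin family also called JAM4, was at 21.8, 16.3 and 20.6 CPM with vehicle and 0.409, 0.321 and 0.0512 CPM with AOA, a ratio of 73.5. Lsr, a lipoprotein receptor that also organises the junctions where 3 epithelial cells meet, was at 17.1, 10.1 and 19.2 CPM and 0.909, 1.28 and 0.716 CPM. For both genes the vehicle culture of mouse 2 was the lowest of the 3.

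The secreted group held growth factors and their binding proteins. Csf1, macrophage colony-stimulating factor, is the growth factor on which macrophages depend, and it was at 10.5, 35.8 and 10.7 CPM with vehicle and 0.318, 0.909 and 0.665 CPM with AOA. Wnt10b, a ligand of the Wnt pathway, was at 13.7, 32.8 and 11.2 CPM and 0.182, 0.481 and 0.256 CPM, a ratio of 63.2. Tgfa, a ligand of the epidermal growth factor receptor, was at 18.3, 9.45 and 16.2 CPM and 0.136, 0.267 and 0.102 CPM, a ratio of 87.9. Mouse 2 was the highest vehicle culture for Csf1 and Wnt10b and the lowest for Tgfa.

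Esm1 had the largest ratio of the 37 genes. It encodes endocan, a secreted proteoglycan best known from endothelial cells, and its vehicle libraries were at 13.3, 44.9 and 11.7 CPM. With AOA it had 4 counts in all, at 0.0909, 0.107 and 0 CPM, and the 0 in mouse 3 allows up to 0.153 CPM, taken as 3 counts. The ratio of 345 had a 95% counting interval from 134 to 1267, which covers counting error only. Of other endothelial genes, Pecam1, an adhesion molecule that leukocytes also carry, was at 117 CPM with vehicle and 47.7 CPM with AOA. Kdr, the endothelial growth factor receptor, was at a low level in both groups, at 1.29 and 0.140 CPM. Both genes were called lower (edgeR adjusted p = 0.00029 and 0.0042).

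Genes of the extracellular matrix followed. Adamts14, a protease that trims the amino end of procollagen, was at 8.15, 34.4 and 5.76 CPM with vehicle and 0.455, 0.642 and 0.307 CPM with AOA. Ltbp3 and Ltbp4 encode latent transforming growth factor beta binding proteins, which hold that cytokine in the matrix in its inactive form. Ltbp3 was at 15.5, 13.4 and 9.19 CPM and 0.546, 0.428 and 0.256 CPM, and Ltbp4 at 10.9, 6.95 and 5.86 CPM and 1.09, 1.12 and 1.48 CPM, the smallest ratio of the 37 genes at 6.18. They were the only Ltbp genes counted in these libraries, and both were switched off.

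The last 3 of the secreted group need care in reading. Igsf10, a large immunoglobulin-domain protein, was at 16.1, 8.92 and 10.5 CPM with vehicle and 0.636, 0.695 and 0.614 CPM with AOA, but 1948 bases of its exons also belong to Med12l on the opposite strand. Med12l itself was lower with AOA, at 51.3 CPM with vehicle and 3.55 CPM with AOA (log2 fold change -3.87 ± 0.27 SE, edgeR adjusted p = 1.5e-05), and the strand setting of the counting is not stated, so reads of the 2 genes cannot be told apart. Lgals6, a galectin at 15.5, 6.17 and 8.98 CPM with vehicle and 0.955, 0.588 and 1.02 CPM with AOA, is a near copy of Lgals4, which went from 2.60 to 0.286 CPM (log2 fold change -3.13 ± 0.53 SE, edgeR adjusted p = 0.0011), and reads of the pair may be split between them. Tg, which encodes the thyroid hormone precursor thyroglobulin, was at 12.6, 5.31 and 10.7 CPM and 1.27, 1.498 and 0.870 CPM, and it contains Sla on its opposite strand, although no exon bases are shared. Sla, a brake on T cell receptor signalling, was at 452 CPM with vehicle and 294 CPM with AOA (log2 fold change -0.64 ± 0.19 SE, edgeR adjusted p = 0.019), a call lost without vehicle replicate 1 or 3 or AOA replicate 3, with adjusted p of 0.073, 0.069 and 0.081.

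Among the intracellular signalling genes, Rgs16, which speeds the GTPase of G alpha subunits and so shortens signals of chemokine receptors, was at 5.20, 34.96 and 5.81 CPM with vehicle and 0.364, 0.856 and 0.563 CPM with AOA. The vehicle culture of mouse 2 stood 6.35 times above the mean of the other cultures. Rapgef3, the cAMP-activated exchange factor EPAC1, was at 15.3, 7.74 and 11.3 CPM and 0.455, 0.642 and 0.767 CPM, with mouse 2 the lowest vehicle culture. Kcnip2, a calcium-binding partner of potassium channels, was at 7.92, 6.36 and 6.44 CPM and 0.773, 0.642 and 0.716 CPM.

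Regulators of small GTPases and of phosphoinositide signals were also present. Fgd5, a guanine nucleotide exchange factor, was at 13.9, 5.05 and 11.8 CPM with vehicle and 0.364, 0.588 and 0.153 CPM with AOA. Arap3, a GTPase-activating protein, was at 10.4, 6.49 and 10.2 CPM and 0.182, 0.909 and 0.716 CPM. The mouse 2 culture was the lowest vehicle culture for both. Spred3, a Sprouty-related inhibitor of the RAS to ERK pathway, was at 9.63, 8.13 and 7.02 CPM and 0.409, 0.374 and 0.307 CPM, with 202 exon bases shared with Ggn on the opposite strand, which was under 1 CPM in both groups on average. Plekhf1, a phosphoinositide-binding protein of endosomes and lysosomes, was at 10.2, 5.38 and 6.60 CPM and 1.23, 1.07 and 1.07 CPM, so its ratio of 6.38 was among the lowest.

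The nuclear and nucleic-acid-binding proteins had low levels, with mean vehicle values between 6.69 and 9.16 CPM. Nfe2, the p45 subunit of a transcription factor that drives globin and platelet genes, was at 6.83, 6.23 and 7.39 CPM with vehicle and 0.773, 1.34 and 0.870 CPM with AOA. Tle2, a Groucho family co-repressor, was at 11.5, 8.59 and 7.39 CPM and 0.727, 1.23 and 0.870 CPM. The highest vehicle culture was 1.19 times the lowest for Nfe2 and 1.55 times for Tle2, and the AOA cultures of mouse 2 were the highest for both.

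Zcchc14, a zinc knuckle protein, had the largest ratio among these genes, from 6.60, 12.8 and 5.86 CPM with vehicle to 0.0455, 0.107 and 0 CPM with AOA. Its 3 AOA counts give a ratio of 167 with a 95% counting interval from 56.7 to 812. Zfp768, a zinc finger protein, was at 8.15, 7.48 and 6.28 CPM and 0.546, 0.856 and 1.02 CPM. Spo11, the enzyme that makes the DNA breaks of meiosis, was at 8.54, 5.77 and 5.76 CPM and 0.909, 0.856 and 0.205 CPM.

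Osgin1, a growth inhibitor induced by oxidative stress, was at 17.9, 29.9 and 17.1 CPM with vehicle and 0.182, 0.267 and 0.256 CPM with AOA, a ratio of 92.3. Nqo1, a quinone reductase that responds to oxidative stress as well, moved the other way, from 0.727 to 20.9 CPM (log2 fold change 4.77 ± 0.41 SE, edgeR adjusted p = 3.6e-05). It is 1 gene of a list of arginine, tryptophan and redox enzymes described below, where 24 of 47 tested genes were called lower and 6 higher. In that list Mt2 went from 29.0 to 1.18 CPM and Mt1 from 29.1 to 3.07 CPM (edgeR adjusted p = 0.00091 and 0.0030). Heatr9, a HEAT-repeat protein, was at 25.4, 17.6 and 16.2 CPM and 0.182, 0.374 and 0.0512 CPM, a ratio of 96.2. Mouse 1 gave the highest vehicle culture of Heatr9, 1.57 times the lowest.

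Gm5538, named Aadacl2fm2 in RefSeq as a relative of arylacetamide deacetylase, was at 27.6, 10.9 and 18.1 CPM with vehicle and 0.864, 1.07 and 0.563 CPM with AOA. The transmembrane proteins Tmem171 and Tmem40 were at 12.7, 14.6 and 12.2 CPM and 6.60, 13.97 and 6.50 CPM with vehicle and at 0.136, 0.214 and 0.256 CPM and 0.864, 0.963 and 0.358 CPM with AOA. Pls1, plastin 1, which bundles actin in microvilli, was at 7.14, 6.23 and 7.13 CPM and 0.409, 1.12 and 0.205 CPM. The 2 long non-coding RNAs were Mirt1, at 30.3, 13.5 and 30.1 CPM and 1.14, 1.39 and 0.665 CPM, and 4930431P03Rik, at 15.9, 10.6 and 8.93 CPM and 1.41, 0.695 and 0.819 CPM. Both came close to the AOA limit in their highest library.

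The vehicle cultures did not vary alike across the 37 genes. The ratio of vehicle replicate 2 to the mean of vehicle replicates 1 and 3 had a median of 0.886 over the 37 genes and 1.06 over the vehicle-expressed genes. It was at least 2 in 10 of the 37 genes (27.0%) and in 2.10% of the vehicle-expressed genes, and at most 0.75 in 11 (29.7%) and 10.7%. The genes at 2 or more were Gpr141, Esm1, Wnt10b, Csf1, Adamts14, Rgs16, Tnfrsf8, Itga1, Tmem40 and Zcchc14, of which 7 are receptors or secreted proteins, as are 17 of all 37 genes. The genes at 0.75 or less were Mirt1, Gm5538, Lsr, Tgfa, Igsf10, Rapgef3, Fgd5, Lgals6, Tg, Arap3 and Plekhf1, of which 5 are receptors or secreted proteins. With vehicle, mouse 1 gave the highest culture for 21 of the 37 genes and mouse 2 for 14, against 24.9% and 51.3% of the vehicle-expressed genes. With AOA, mouse 2 gave the highest culture for 24 of the 37 genes, against 32.7%.

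**Figure D3:**
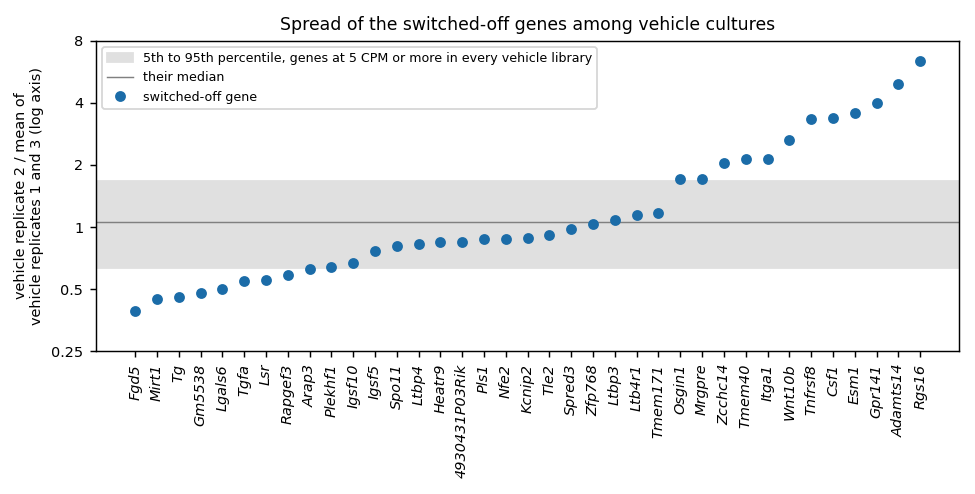
Ratio of the CPM in vehicle replicate 2 to the mean of vehicle replicates 1 and 3 for each switched-off gene, on a log axis, in order of the ratio. The grey band covers the 5th to 95th percentile of the vehicle-expressed genes, from 0.636 to 1.68, and 10 switched-off genes are at 2 or more, with Rgs16 the highest.

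Marker lists of other cells that a CD8+ preparation could hold were summed in each library. The 20 myeloid markers, 9 of them counted, summed to between 588 and 1273 CPM with vehicle and between 261 and 427 CPM with AOA, and the highest vehicle value was that of mouse 2. Of the 9, edgeR called 5 lower. The defining genes Lyz2, Cd14, Mpeg1 and Cybb were below 1 CPM on average in both groups, whereas the 5 lower genes were not near 0 with vehicle. Itgam went from 45.3 to 1.22 CPM, Cd68 from 14.3 to 3.85 CPM and Ly6c2 from 728 to 332 CPM. Fcer1g was at 2.17, 55.3 and 5.70 CPM with vehicle and Tyrobp at 2.95, 25.1 and 3.96 CPM. Both were highest in mouse 2, and with AOA they averaged 1.67 and 1.27 CPM. The call of Fcer1g was lost without any 1 of the AOA replicates, with adjusted p of 0.092, 0.12 and 0.11, and those of Tyrobp and Ly6c2 without AOA replicate 1, with adjusted p of 0.060 and 0.051. Of the 11 natural killer markers 8 were counted and summed to between 907 and 2367 CPM with vehicle and between 729 and 933 CPM with AOA, and edgeR called 4 of them lower. Gzma went from 725 to 6.30 CPM, Klrb1c from 58.5 to 7.17 CPM and Klre1 from 18.1 to 6.74 CPM, with Klrb1c at 40.8, 115 and 19.6 CPM in the vehicle cultures, while Ncr1 was at 0.809 and 0.323 CPM. Nkg7 and Eomes, which CD8+ effector cells also express, were not called, at 464 and 657 CPM and at 151 and 156 CPM, although without vehicle replicate 2 Nkg7 was called higher (edgeR adjusted p = 0.0033). The 11 mast cell and basophil markers, 5 of them counted, summed to between 14.5 and 45.5 CPM with vehicle, again highest in mouse 2, and to between 7.14 and 15.5 CPM with AOA. All 8 CD4 and regulatory T cell markers were counted and summed to between 1429 and 1616 CPM with vehicle and between 681 and 1323 CPM with AOA, with 6 called lower and 0 higher by edgeR. Cd4 went from 82.0 to 9.90 CPM, while Foxp3 was at 13.3 and 17.2 CPM and Il2ra, the largest part of the sum with AOA, at 676 and 692 CPM, neither of them called. Without vehicle replicate 2 Foxp3 was called higher (edgeR adjusted p = 0.023).

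The 17 dendritic cell markers, 11 of them counted, summed to between 305 and 441 CPM with vehicle and between 290 and 326 CPM with AOA, but edgeR called 5 lower and 1 higher. Snx22, at 132 and 160 CPM, and Bst2, at 83.4 and 98.5 CPM, made up much of both sums and were not called. Itgax went from 36.2 to 1.41 CPM and H2-Ab1 from 14.2 to 2.23 CPM, both called lower. H2-Aa at 2.54 and 1.49 CPM, H2-Eb1 at 2.25 and 1.95 CPM and Cd74 at 12.7 and 5.94 CPM were not called. With the mouse as a block Cd74 was called lower (edgeR adjusted p = 0.020). Ccr9, the gene called higher, went from 0.403 to 2.65 CPM. For 12 B cell markers, 5 counted, the sums were 12.7 to 19.2 CPM and 23.3 to 30.6 CPM. For 10 markers of gamma delta and innate-like T cells, 2 counted, they were 6.68 to 16.6 CPM and 1.95 to 6.42 CPM. Erythroid and platelet markers, 2 of 12 counted, summed to between 3.87 and 8.85 CPM with vehicle and between 1.23 and 1.59 CPM with AOA. For stromal and endothelial markers, 3 of 11 counted, the sums were between 109 and 139 CPM and between 38.9 and 55.8 CPM. The 2 and the 3 counted genes of these lists were all called lower by edgeR. The 9 CD8 T cell markers, 8 of them counted, summed to between 5664 and 6136 CPM with vehicle and between 7282 and 8147 CPM with AOA. The part of these cells in the levels of the 37 genes was not tested.

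Whether relatives of the switched-off genes moved with them was measured on 73 other genes. They came from 16 gene families, taken by the stem of the symbol, of which the Ltbp family added none. Of the 73 genes, 37 (50.7%) were called lower and 8 higher by edgeR, beside 26.8% and 26.2% of all tested genes, with a median log2 fold change of -0.65. Most families had only 1 to 5 other genes, and differences between families were not tested. The families were chosen with earlier results of these data known, so their share is a description and carries no test. With 1 library left out, between 27 and 39 family genes were called lower. Calls lost in some of these fits included those of Rgs9, Rgs10, Rgs14, Itga2, Itga4, Itga5, Itga10 and Tnfrsf1a. Among 11 other Rgs genes 8 were called lower, led by Rgs8 (log2 fold change -7.78 ± 1.14 SE, edgeR adjusted p = 0.00054). Rgs8 was at 2.64, 11.4 and 1.69 CPM with vehicle and had a single count with AOA, a ratio of 307 with a 95% counting interval from 54.6 to 12184. Rgs1, a brake on chemokine receptors, went from 41.0 to 5.74 CPM (-2.83 ± 0.25 SE, edgeR adjusted p = 4.5e-05). Rgs18 and Rgs12 were called higher, by log2 fold changes of 2.41 ± 0.57 and 1.87 ± 0.35 SE (edgeR adjusted p = 0.0067 and 0.0020). Of 14 other integrin alpha genes 10 were called lower and Itgae, the CD103 chain that binds E-cadherin on epithelium, was called higher, from 18.9 to 79.9 CPM (log2 fold change 2.06 ± 0.43 SE, edgeR adjusted p = 0.0035). Itgam and Itgax were among the lower ones, at log2 fold changes of -5.25 ± 0.37 and -4.70 ± 0.38 SE (edgeR adjusted p = 1.6e-05 and 2.9e-05).

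Among 17 other Tnfrsf genes 7 were called lower, 2 higher and 8 neither. Tnfrsf23 went from 36.4 to 3.77 CPM (log2 fold change -3.29 ± 0.33 SE, edgeR adjusted p = 7.4e-05), and Tnfrsf11a, the receptor RANK, had 3 counts with vehicle and 194 with AOA, a ratio of 50.5 with a counting interval from 17.0 to 247 (5.48 ± 0.59 SE, edgeR adjusted p = 0.00011). Of 5 other Tle genes only Tle6, next to Tle2 in the genome, was called lower, from 2.01 to 0.285 CPM (log2 fold change -2.80 ± 0.40 SE, edgeR adjusted p = 0.00045), and the abundant Tle5 was at 393 and 426 CPM (0.10 ± 0.14 SE, edgeR adjusted p = 0.59). Spred1 and Plekhf2 were called higher, by log2 fold changes of 0.81 ± 0.17 and 0.73 ± 0.17 SE (edgeR adjusted p = 0.0031 and 0.0056), where Spred3 and Plekhf1 were switched off. Nfe2l1 and Nfe2l2 did not pass the test, with log2 fold changes of -0.20 ± 0.22 and 0.33 ± 0.17 SE. Osgin2 was at 13.8 and 22.02 CPM, with an edgeR adjusted p of 0.055 and of 0.024 with the mouse as a block.

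**Figure D4:**
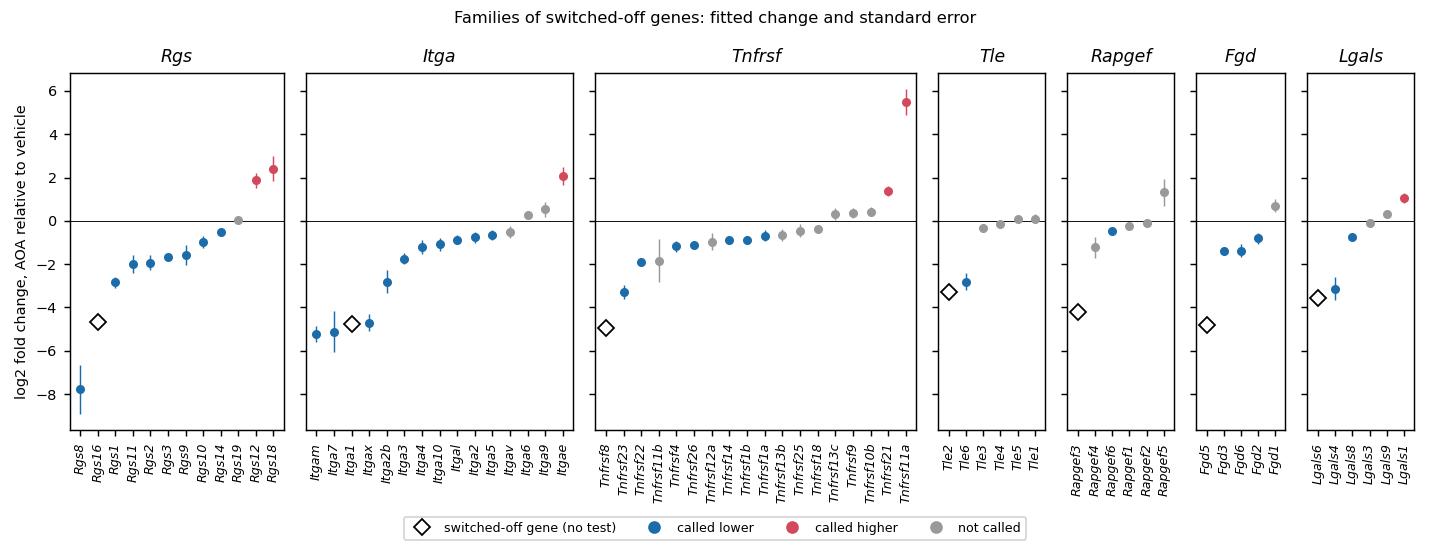
Fitted log2 fold change of AOA relative to vehicle for 7 families of the switched-off genes, with bars for the standard error. Open diamonds are switched-off genes, which carry no test, and points are other family members coloured by the edgeR call. Rgs8 is the lowest point, at -7.78, and Tnfrsf11a the highest, at 5.48.

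Positions in the genome were compared in the same way. No 2 switched-off genes lay within 100 kb of each other, and the only adjacent pair in the order of counted genes was Igsf10 and Gm5538 on chromosome 3, which are 385348 bases apart. The counted genes just before and after each switched-off gene, in order of start position, gave 68 other tested genes. Of these, 41 (60.3%) were called lower by edgeR, 7 higher and 20 neither. These are not always the nearest genes, and Med12l, which overlaps Igsf10, was not among them. Neighbours of the other genes called lower were themselves called lower in 31.9%, and those of all other vehicle-expressed genes in 26.6%. Some neighbours are known effector genes. Heatr9 lies 3284 bases from Ccl5, a chemokine of effector T cells, which went from 311 to 8.38 CPM (log2 fold change -5.22 ± 0.36 SE, edgeR adjusted p = 1.5e-05). Esm1 lies 28694 bases from Gzmk, a granzyme, which went from 71.8 to 3.12 CPM (-4.51 ± 0.45 SE, edgeR adjusted p = 7.6e-05). Adamts14 lies 24332 bases from Prf1, the pore-forming perforin, which went from 108 to 12.1 CPM (-3.15 ± 0.59 SE, edgeR adjusted p = 0.0020).

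Other pairs were of low level. Rgs16 lies 42684 bases from Rgs8, and Igsf10 lies 53750 bases from P2ry12, a purinergic receptor, which went from 2.83 to 0.200 CPM (log2 fold change -3.78 ± 0.38 SE, edgeR adjusted p = 8.4e-05). Igsf5 lies 41620 bases from B3galt5, which went from 2.39 to 0.205 CPM (-3.55 ± 0.46 SE, edgeR adjusted p = 0.00028). Neighbours did not move as 1 block. Ripk3, next to Ltb4r1, was called higher, from 51.6 to 77.1 CPM (log2 fold change 0.56 ± 0.13 SE, edgeR adjusted p = 0.0051), and Fam136a, next to Tgfa, from 19.4 to 39.7 CPM (1.02 ± 0.21 SE, edgeR adjusted p = 0.0032).

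**Figure D5:**
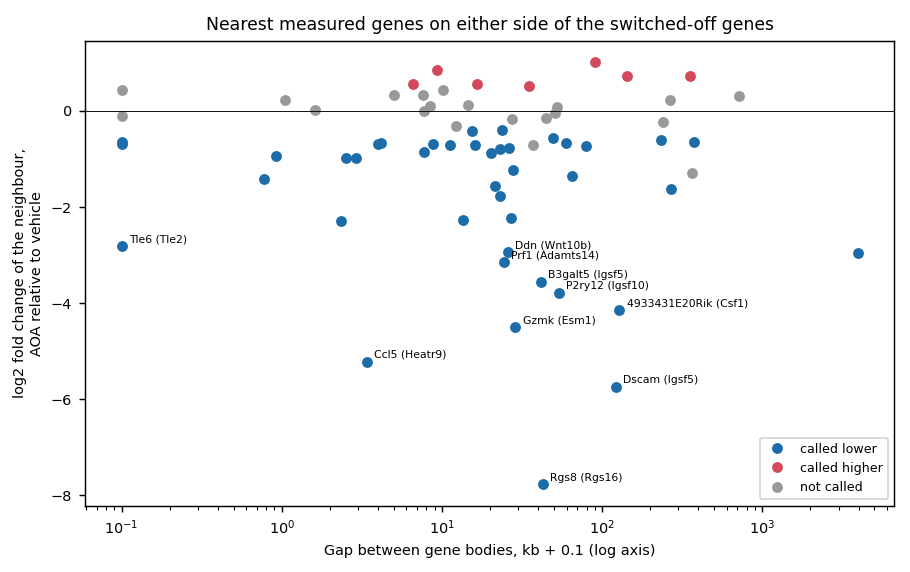
Log2 fold change of the counted genes just before and after each switched-off gene in order of start position, which are not always the nearest. The horizontal axis is the gap between the gene bodies in kb on a log axis, with 0.1 kb added so that overlapping genes can be drawn. Colours give the edgeR call, and names give the neighbour with the switched-off gene in brackets. Blue points, called lower, outnumber the others, and Rgs8 is the lowest.

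Promoters were read from RefSeq on GRCm38.p6, as the 250 bases before each transcription start. These were held for 30 of the 37 genes, in 33 windows, and not for Igsf5, Tmem171, Lgals6, Tg, Arap3, Nfe2 and Spo11. The windows were searched on both strands for 10 motifs, those of factors active in T cells and of general promoter elements such as the GC box and TATA box. The letters TGANTCA, bound by AP-1, read the same on both strands and were in 7 of the 33 windows (21.2%), against 4.01% of 9624 windows of vehicle-expressed genes and 6.75% of 32851 windows in all. The letters CCGGAAG of ETS factors were in 6.06%, 15.7% and 6.91% of these windows. A GC box, GGGCGG, was in 60.6%, 59.5% and 32.7%. The letters TTCNNNGAA, bound by STAT factors, were in 6.06%, 5.92% and 7.02%, and the cAMP element TGACGTCA in 0 of the 33 windows, 2.73% and 1.55%. The motifs were not tested, and a match in letters is not a site.

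The windows below, in the direction of the gene, are shown because 5 of them hold the AP-1 letters, in capitals, and the last is that of Esm1, the gene with the largest ratio, which holds none. The capitals begin at base -146 in Heatr9, -97 in Osgin1, -65 in Lsr, -132 in Tnfrsf8 and -140 in Mirt1, counted back from the start. They lie at chr11:83522100-83522349 (minus strand), chr8:119436897-119437146 (plus strand), chr7:30973470-30973719 (minus strand), chr4:145315165-145315414 (minus strand), chr19:53464797-53465046 (minus strand) and chr13:113209409-113209658 (plus strand). Windows of Gm5538 and Tmem40 held the AP-1 letters too.
Heatr9: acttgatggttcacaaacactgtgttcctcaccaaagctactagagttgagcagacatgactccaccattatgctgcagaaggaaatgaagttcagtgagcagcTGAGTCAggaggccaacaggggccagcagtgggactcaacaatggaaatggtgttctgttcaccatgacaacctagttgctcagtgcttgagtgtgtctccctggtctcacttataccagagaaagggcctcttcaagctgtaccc
Osgin1: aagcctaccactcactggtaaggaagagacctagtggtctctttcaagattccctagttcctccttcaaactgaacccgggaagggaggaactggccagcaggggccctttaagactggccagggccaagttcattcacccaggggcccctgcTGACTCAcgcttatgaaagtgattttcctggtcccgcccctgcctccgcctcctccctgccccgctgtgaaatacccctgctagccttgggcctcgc
Lsr: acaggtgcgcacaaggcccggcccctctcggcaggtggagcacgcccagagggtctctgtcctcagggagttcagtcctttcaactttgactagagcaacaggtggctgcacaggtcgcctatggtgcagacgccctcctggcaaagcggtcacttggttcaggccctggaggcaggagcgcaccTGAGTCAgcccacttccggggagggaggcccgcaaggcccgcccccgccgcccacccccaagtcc
Tnfrsf8: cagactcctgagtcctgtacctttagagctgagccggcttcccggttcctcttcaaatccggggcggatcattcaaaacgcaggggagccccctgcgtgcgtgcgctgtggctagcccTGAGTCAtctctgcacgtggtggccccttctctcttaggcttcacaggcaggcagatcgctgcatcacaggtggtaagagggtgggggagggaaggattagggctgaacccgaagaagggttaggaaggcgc
Mirt1: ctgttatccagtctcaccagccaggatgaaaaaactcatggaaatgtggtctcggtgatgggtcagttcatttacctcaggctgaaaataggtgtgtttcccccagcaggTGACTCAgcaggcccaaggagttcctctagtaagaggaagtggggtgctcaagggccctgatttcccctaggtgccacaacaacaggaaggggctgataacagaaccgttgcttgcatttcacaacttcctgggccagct
Esm1: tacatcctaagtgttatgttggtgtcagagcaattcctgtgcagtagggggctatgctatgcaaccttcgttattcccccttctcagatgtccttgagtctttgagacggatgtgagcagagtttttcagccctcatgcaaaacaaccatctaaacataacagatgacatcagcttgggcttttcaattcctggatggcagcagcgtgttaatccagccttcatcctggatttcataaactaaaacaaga

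Gene lists give the setting of the 5 switched-off genes they hold, Ltb4r1, Csf1, Adamts14, Rgs16 and Kcnip2. Over 8 lists, 494 other genes were tested and edgeR called 233 (47.2%) lower and 70 (14.2%) higher, with a median log2 fold change of -0.59. Of all tested genes, 26.8% were called lower and 26.2% higher. The lists were chosen with earlier results of these data known, so the shares of the lists are a description and carry no test. Among 32 other cytokines and chemokines 14 were called lower and 6 higher, so the list that holds Csf1 moved in both directions. Ccl5 and Ebi3, a subunit of interleukin-27 and interleukin-35, went from 311 to 8.38 CPM and from 23.0 to 1.27 CPM (edgeR adjusted p = 1.5e-05 and 0.00019), while Lif, an interleukin-6 family cytokine, went from 8.88 to 101 CPM (log2 fold change 3.50 ± 0.27 SE, edgeR adjusted p = 2.3e-05), and Osm, of the same family, from 28.9 to 149 CPM (2.36 ± 0.21 SE, edgeR adjusted p = 4.5e-05). In this list Spp1, osteopontin, was called lower at an edgeR adjusted p of 0.040, and the call was lost with library totals in place of TMM, without vehicle replicate 3 and without each AOA replicate, where the adjusted p was between 0.057 and 0.18, and DESeq2 gave it no adjusted p.

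For the list with Adamts14, 44 other proteases, inhibitors and matrix genes gave 23 lower and 6 higher. Adam8, a membrane protease, went from 253 to 16.4 CPM (log2 fold change -3.95 ± 0.45 SE, edgeR adjusted p = 0.00014), and Thbs1, the matrix protein thrombospondin 1, from 0.660 to 28.5 CPM (5.40 ± 0.56 SE, edgeR adjusted p = 9.6e-05). For the list with Ltb4r1, 47 other lipid and eicosanoid genes gave 28 lower and 5 higher. Ptgir, the prostacyclin receptor, went from 7.36 to 0.958 CPM (log2 fold change -2.98 ± 0.49 SE, edgeR adjusted p = 0.0010), and Fabp5, a fatty acid carrier, from 7.51 to 34.2 CPM (2.18 ± 0.33 SE, edgeR adjusted p = 0.00065).

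For the list with Rgs16, 120 other signal regulators gave 60 lower and 13 higher, with Pde4a, a cAMP-degrading enzyme, going from 18.6 to 1.32 CPM (log2 fold change -3.84 ± 0.44 SE, edgeR adjusted p = 0.00016). For the list with Kcnip2, 53 other ion channel, purinergic and calcium genes gave 18 lower (34.0%, near the 26.8% of all tested genes) and 7 higher, with Adora2a, the adenosine A2a receptor, going from 92.3 to 14.6 CPM (-2.68 ± 0.24 SE, edgeR adjusted p = 4.8e-05). The 3 lists without a switched-off gene were those of 71 transcription factors, with 39 lower and 10 higher, of 81 cytoskeleton, annexin and S100 genes, with 28 (34.6%) and 17 (20.99%), near the shares of all tested genes, and of 47 arginine, tryptophan and redox enzymes, with 24 and 6.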

How the data were processed

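RNA of CD8+ T cells from 3 mice was measured in 6 libraries, 3 with vehicle and 3 with AOA, grouped by the treatment in the sample labels. The authors prepared stranded messenger RNA libraries and deposited raw counts per gene, with an Entrez number, symbol and length. The submitters' processing notes name bcl2fastq, STAR, featureCounts, DESeq2 and mm10, with no versions, and the sources used here do not give the strand setting. A wrong strand setting or multimapping reads would affect overlapping genes and near copies. No column of values lacked a sample. Depth was 12881962 to 21997078 counts, and counting intervals cover counting error only.

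CPM used column totals, and TPM the deposited lengths. The 37 genes, families and lists were chosen with earlier results of these data known. Fits across all genes used edgeR 4.0.16 in R 4.3.3 (filterByExpr with its minimum count of 10, TMM, quasi-likelihood test, adjusted p threshold 0.05), and were tested on simulated data. Alternatives were DESeq2 1.42.0, size factors by median of ratios, column totals, no filter, the mouse as replicate block, each library left out, and other limits of the rule. Those for families and neighbours were added after seeing the data.

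Mouse numbers in the labels pair the cultures. Deviations from the group means correlated within mice 1, 2 and 3 with r of 0.0868, 0.189 and 0.194 across 11759 genes, which are not independent replicates. Replicates of a group came from different mice, so p-values measure the spread between these mice.

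Named in every library were the 25 genes with the highest mean vehicle CPM, those in a list, the 5 nearest to each limit on either side and neighbouring pairs. Remaining switched-off genes were added after their values were seen. From each list, called genes at 5 CPM or more in the higher group were named by size of change, up to 3 per direction, and not all of these are printed. Family members and neighbours were named for their size of change or contrast after their values were seen.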

Additional observations from a re-analysis of the deposited data

How the results depend on the processing

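The number of switched-off genes depended on the limits of the rule. It was 8 with at least 10 CPM and below 1 CPM, 168 with at least 2 CPM and below 1.5 CPM, and 121 with group means in place of every library. Stricter limits can only remove genes and looser ones only add them. Leaving out 1 library gave between 37 and 64 genes, with 57 without vehicle replicate 2 and 64 without AOA replicate 2. TMM library sizes gave 37 genes, of which 36 were shared, with Kdm4d in place of Fgd5, and TPM with the same limits gave 42, of which 16 were shared. The mirror rule gave 13 genes, and 2, 70 and 46 under the 3 changes of limits, and between 13 and 25 with 1 library left out, the 25 without vehicle replicate 2.

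Counts of edgeR calls stayed within 1.5 times under all 11 alternatives. Genes called lower were between 2433 and 3297 with 1 library left out, list genes called lower between 208 and 254, family genes called lower between 27 and 39, and neighbours called lower between 35 and 41. With the mouse as replicate block, 3166 genes were called lower and 3126 higher, and 6007 of the 6233 called genes were shared. Among family genes the block added calls for Itgav, Osgin2, Rapgef5, Tnfrsf11b and Tnfrsf12a and lost that of Itga5. The AOA levels rest on 3 to 74 counts a gene, so ratios of genes with few counts are imprecise.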
